A study of Mus musculus with 2 samples.

Results

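The epithelial-mesenchymal transition (EMT) genes described here are *Cdh1*, *Cdh2*, *Vim*, *Fn1*, *Zeb1*, *Zeb2*, *Snai1*, *Snai2*, *Twist1* and *Twist2*. They were taken by name, as every probe other than a control whose gene name in the scanner files was 1 of these 10, so the rule itself uses no measured value. The 10 genes are among 21245 genes with a probe on the array, and they are read by 12 probes in 21 spots. *Cdh2* and *Zeb2* have 2 probes each and the other 8 genes have 1.

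RNA came from the incisors of wild-type mice (C57BL/6J, per the study's methods) and of *Sox21* knockout (*Sox21* KO) mice, for which the strain background is not given in the sources used here. The labels name no treatment. The study's methods add that its *Sox21* KO mice had a soft diet, and elsewhere the study used mice with GFP inserted at the *Sox21* locus, which it credits to the same earlier work as the *Sox21* KO mice. The sample labels give an age of postnatal day 0 and the methods give day 1, and the number of animals behind each RNA is not stated. The labels call the tissue incisor, whereas the text of the series speaks of ameloblasts and whole tooth germs, and the methods speak of tooth germs, which the study's results describe as holding epithelium and mesenchyme. Each genotype has 1 array (Agilent SurePrint G3 Mouse GE, 1 colour). With a lone array on each side, no difference below has a replicate check or a test, and the precision is limited by that number. In such bulk RNA, fewer cells of a type and less RNA per cell cannot be told apart.

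In epithelial-mesenchymal transition, epithelial cells give up their cell-cell junctions and take on the migratory, matrix-producing character of mesenchyme. E-cadherin, the protein of *Cdh1*, holds epithelial neighbours together, and N-cadherin, of *Cdh2*, is the mesenchymal and neural counterpart. The Zeb, Snai and Twist proteins are transcription factors that bind E-box sequences and repress epithelial genes such as *Cdh1*. In a tooth germ, the ameloblasts that make enamel are epithelial and face the mesenchyme of the dental papilla, where mesenchymal genes are part of the normal tissue.

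The signals below were read by probes of 60 bases. The first 30 bases of the *Cdh1* probe are shown because its 10 spots give the most precise value, and those of *Vim*, *Fn1* and *Snai1* because these genes were higher on the *Sox21* KO array. Both *Zeb2* probes are shown because their ratios differed. In the files' mm9 coordinates the probes lie at chr8:109193812-109193871 (*Cdh1*), chr2:13504232-13504291 (*Vim*), chr1:71632116-71632175 (*Fn1*) and chr2:167368073-167368132 (*Snai1*). The brighter *Zeb2* probe lies at chr2:44842774-44842833 and the dimmer at chr2:44840038-44840097, with starts 2736 bases apart. The files write the *Fn1* and *Zeb2* coordinates from high to low and pair each probe with its gene, and which part of the transcript a probe lies in was not analysed here.
Cdh1: acattctaacgggaaaaaggagacaagacc
Vim: gcagtttttcaggagcgcaagatagatttg
Fn1: ggtgattatttttataagcacatgccaacg
Snai1: gtttcacagcagtttaactgtctcagaagg
Zeb2, brighter probe: ctgtattttcgactgaaaattccactttct
Zeb2, dimmer probe: tacgtgggggaaaatatatgtgaaagcaat

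All 12 probes were well above background on both arrays by the scanner software's own mark. Counting every gene with any such probe, 13797 genes were measured. The lowest member signal, 87.5 at the dimmer *Zeb2* probe on the wild-type array, compares with 21.3 for the lowest signal so marked on that array. Signals are given below as multiples of the 75th percentile of their array, which was 268 on the wild-type and 276 on the *Sox21* KO array. Differences are log2 ratios, *Sox21* KO minus wild-type, each with the error that the scanner software's signal errors give (0.20 to 0.23 for the 12 probes). At bright probes that error is a nearly constant share of the signal, such as 446 of 4458 for *Cdh1* and 2585 of 25848 for *Vim* on the wild-type array. It therefore works as a nearly fixed cut, and is not a measured spread between spots or between animals. The targeted gene, *Sox21*, was lower on the *Sox21* KO array at both of its probes but still detected there. The processed signals on the wild-type and *Sox21* KO arrays were 1362 and 659 at the brighter probe and 286 and 103 at the dimmer, with log2 ratios of -1.09 and -1.51. All 4 readings were well above background, and whether these probes lie in the deleted part is not given in the sources used here.

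The 10 genes did not move together. Taking the brighter probe where there are 2, 5 genes were higher on the *Sox21* KO array (*Vim*, *Fn1*, *Zeb1*, *Zeb2* and *Snai1*) and 5 were lower (*Cdh1*, *Cdh2*, *Snai2*, *Twist1* and *Twist2*). Under scaling by the array median, *Cdh1* and *Snai2* were also higher, which made the split 7 and 3. The log2 ratios ran from -0.44 for *Cdh2* to 0.41 for *Zeb2*, with a median of 0.14 over the 10 genes against 0.01 over all measured genes. That median was 0.06 with the dimmer probes of *Cdh2* and *Zeb2* and 0.23 under scaling by the array median. None of the 10 genes (0 genes) was 2-fold apart, where 0.739% of measured genes were at least 2-fold higher and 0.667% at least 2-fold lower. At 1.5-fold the count was also 0, where 3.20% of measured genes were higher and 2.99% lower by that much. Likewise 0 of the 12 probes passed either fold. Over all measured probes, 0.632% were higher and 0.794% lower by 2-fold, and 3.03% and 3.87% by 1.5-fold. With background shares this low, 0 of 10 lies near the background and is not a result about these genes. Scaling by the array median moved the 2-fold counts over all measured genes from 102 higher and 92 lower to 135 and 63, and their median log2 ratio to 0.11.

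**Figure D1:**
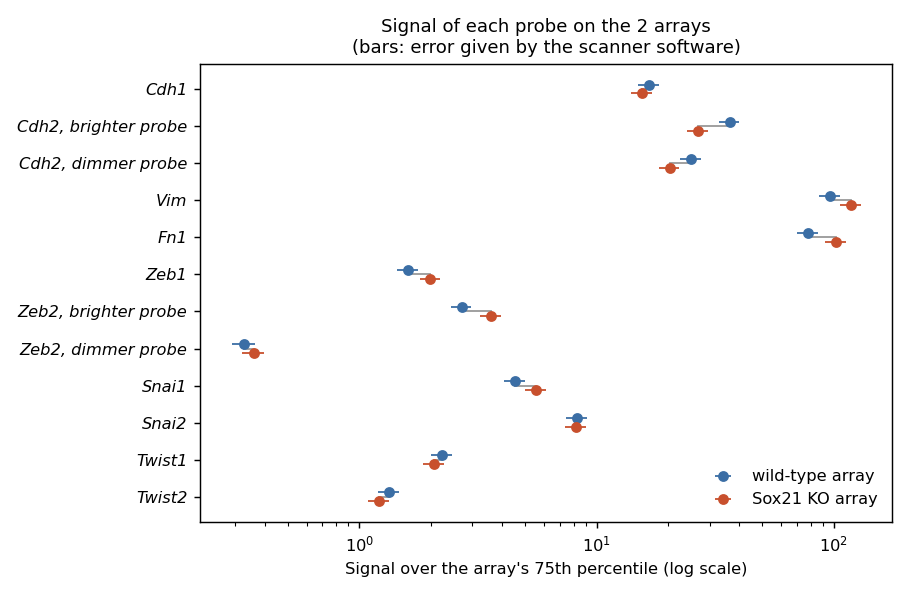
Signal of each probe on the wild-type (blue) and *Sox21* KO (orange) arrays, as multiples of the array's 75th percentile on a log scale, with the scanner software's error as bars. The KO point lies to the right for *Vim*, *Fn1*, *Zeb1*, *Zeb2* and *Snai1* and to the left at both *Cdh2* probes.

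*Cdh1* signal was nearly the same on the 2 arrays. Its probe is spotted 10 times on each, which makes it the best measured of the genes. On the wild-type array the spots ran from 15.9 to 17.5 with a median of 16.6, and on the *Sox21* KO array from 14.9 to 16.9 with a median of 15.7. The ranges overlap, but at every one of the 10 positions the *Sox21* KO spot was the lower, with log2 ratios between -0.16 and -0.03. The mean log2 ratio was -0.09 ± 0.04 (SD, n = 10 spots of 1 array pair), a signal 1.07-fold lower. Scaling by the array median instead gave 0.00. *Cdh1* thus stood within the range that a change of scaling alone covers, and 65.5% of measured genes had a larger difference in either direction. The 10 spots are repeat readings of the same RNA and say nothing of the spread between mice.

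**Figure D2:**
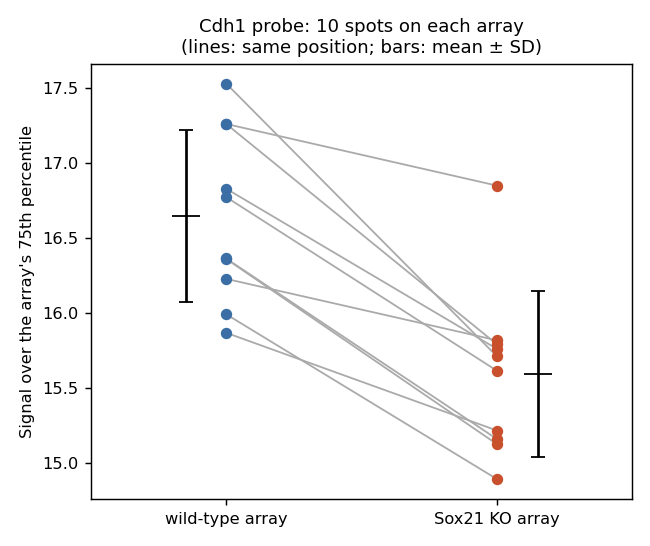
The 10 *Cdh1* spots on each array, as multiples of the array's 75th percentile, with lines joining spots at the same position and bars for the mean ± SD; the vertical axis does not start at 0. Every line slopes downward, with log2 ratios from -0.16 to -0.03.

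*Cdh2*, the N-cadherin gene, was lower on the *Sox21* KO array at both of its probes. Its difference was the largest of the 10 genes as processed here, but not under scaling by the array median, where *Cdh2* had -0.35 and *Zeb2* 0.51, nor with the dimmer probe or the mean of both. Its brighter probe read 36.4 on the wild-type and 26.8 on the *Sox21* KO array, a log2 ratio of -0.44 ± 0.20 (scanner error), or 1.36-fold lower. The dimmer probe, whose start lies 173 bases away, read 25.1 and 20.3, a log2 ratio of -0.30. Both differences were larger than the scanner error. Among measured genes, 11.7% had a larger difference than the brighter probe. The log2 ratio of *Cdh2* minus that of *Cdh1* was -0.35 ± 0.29, a difference that no scaling of a whole array can alter. Over all processing alternatives it ran from -0.35 to -0.21, the latter with the dimmer *Cdh2* probe and inside the error. The study reports strong N-cadherin and Vimentin staining in incisors of older *Sox21* KO mice, which is protein at a later age and not RNA.

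*Vim* and *Fn1*, the mesenchymal structural genes, were both higher on the *Sox21* KO array. *Vim* encodes vimentin, the intermediate filament protein of mesenchymal cells, and its probe read 96.5 on the wild-type and 118 on the *Sox21* KO array. The log2 ratio of *Vim* was 0.29 ± 0.20, or 1.23-fold higher. *Fn1* encodes fibronectin, an extracellular matrix protein, and read 77.9 and 102, with a log2 ratio of 0.39 ± 0.20, or 1.31-fold higher. Under the normal-exponential background correction *Vim* had 0.26 and *Fn1* 0.41, close to the values without it. Larger differences were found for 23.1% of measured genes in the case of *Vim* and for 14.7% in the case of *Fn1*. Relative to *Cdh2*, the log2 ratio of *Vim* stood 0.73 ± 0.29 higher and that of *Fn1* 0.83 ± 0.29 higher, so the 3 mesenchymal genes outside the transcription factors went in opposite directions.

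*Zeb1* and *Zeb2*, the zinc-finger and homeodomain repressors of *Cdh1*, were both higher on the *Sox21* KO array. *Zeb1* has 1 probe, whose processed signal before scaling was 431 on the wild-type and 550 on the *Sox21* KO array, a log2 ratio of 0.31 ± 0.21 after scaling. The brighter *Zeb2* probe read 2.70 and 3.59, a log2 ratio of 0.41 ± 0.20, or 1.33-fold higher. Its dimmer probe read 0.327 and 0.359, with a log2 ratio of 0.13 ± 0.23, within the scanner error. The gap of 0.28 between the 2 *Zeb2* probes was wider than the median gap of 0.16 over the 2969 genes with 2 measured probes, and 27.5% of those genes had a gap as wide. The 2 *Cdh2* probes were 0.14 apart. With the dimmer probe in place of the brighter, *Zeb2* would rank below *Zeb1*, so the order of the Zeb genes is not settled by these arrays.

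The Snai genes differed from each other. *Snai1*, a zinc-finger repressor of *Cdh1*, read 4.54 on the wild-type and 5.56 on the *Sox21* KO array, a log2 ratio of 0.29 ± 0.20. *Snai2*, its close relative in neural crest and in basal epithelial cells, read 8.27 and 8.17, a log2 ratio of -0.02 ± 0.20. The difference of *Snai2* was exceeded by 94.0% of measured genes. It went to 0.08 under scaling by the array median, where *Cdh1*, *Twist1* and *Twist2* were nearer to 0. The log2 ratio of *Snai1* stood 0.31 ± 0.29 above that of *Snai2*, and between 0.23 and 0.31 over the processing alternatives. The lowest value, inside the error, came with the normal-exponential background correction, where *Snai1* had 0.23. The third Snai gene, *Snai3*, had signals of 13.0 and 4.01, failed the background mark on both arrays and has no ratio here.

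The Snai and Zeb proteins recognise the E-box CACCTG, and its reverse complement CAGGTG reads the same site on the other strand. Promoters from RefSeq (GRCm38.p6) were matched for 5 of the 10 members, *Snai1*, *Vim*, *Twist1*, *Twist2* and *Zeb2*, the last with 4 starts. In the 250 bases before the start, 1 of these 8 promoters held either form, that of *Snai1*, with the E-box beginning 126 bases before the start. The same windows of 17.2% of all 32851 promoters in the table held it. The window of *Snai1*, on the plus strand at chr2:167537945-167538194 (GRCm38.p6), is shown as the only matched member promoter with the site, and capitals mark the E-box. A match in letters describes the sequence and not binding.
Snai1 promoter: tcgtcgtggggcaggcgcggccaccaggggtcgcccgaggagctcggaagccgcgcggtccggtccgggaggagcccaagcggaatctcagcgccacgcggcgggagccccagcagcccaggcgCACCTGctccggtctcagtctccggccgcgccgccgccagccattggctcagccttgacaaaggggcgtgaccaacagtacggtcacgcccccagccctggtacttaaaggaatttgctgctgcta

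*Twist1* and *Twist2*, basic helix-loop-helix factors of mesenchyme, were slightly lower on the *Sox21* KO array, by less than the scanner error. *Twist1* read 2.23 on the wild-type and 2.07 on the *Sox21* KO array, with a log2 ratio of -0.11 ± 0.20. *Twist2* read 1.34 and 1.21, with a log2 ratio of -0.15 ± 0.21. The 2 genes differed by 0.04 ± 0.29, well inside the error. Under scaling by the array median they stood at -0.01 and -0.05. Among measured genes, 60.9% differed by more than *Twist1* and 48.8% by more than *Twist2*.

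**Figure D3:**
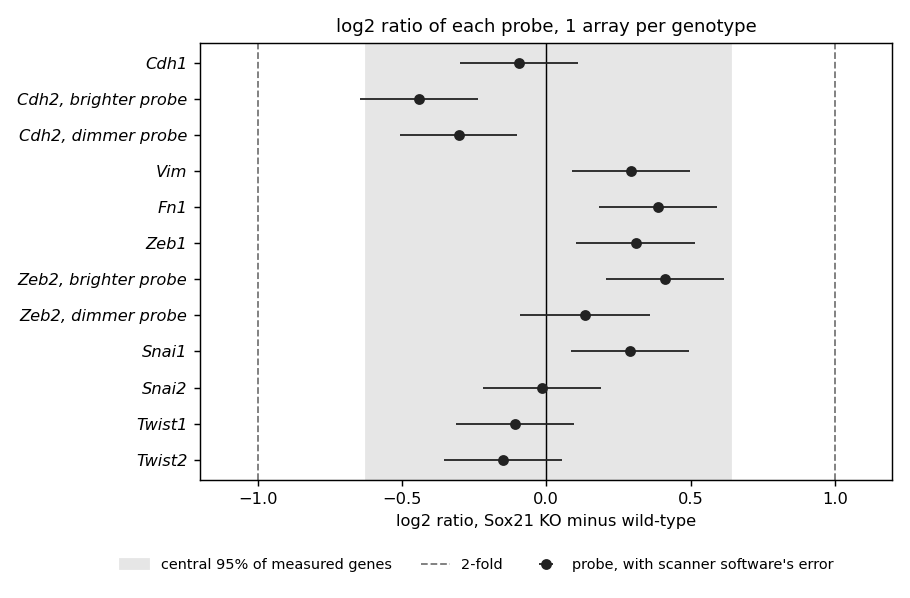
log2 ratio of each probe (*Sox21* KO minus wild-type) with the scanner software's error as bars; the grey band holds the central 95% of measured genes (-0.62 to 0.64) and dashed lines mark 2-fold. All 12 points lie inside the band, from -0.44 at the brighter *Cdh2* probe to 0.41 at the brighter *Zeb2* probe.

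Against *Cdh1* within the same arrays, 5 genes stood higher in log2 ratio by more than the scanner error, as did 19.2% of all measured genes. These were *Zeb2* by 0.51, *Fn1* by 0.48, *Zeb1* by 0.40, *Vim* by 0.39 and *Snai1* by 0.38, each with a scanner error of 0.29. With the dimmer *Zeb2* probe the difference of *Zeb2* was 0.23, inside that error. The differences from *Cdh1* were 0.08 for *Snai2*, -0.01 for *Twist1* and -0.06 for *Twist2*, all inside that error. Of the 10 genes, 6 had a log2 ratio larger than their scanner error at the brighter probe, against 33.9% of all measured genes. A ratio larger than the repeat-spot spread was found for 9, against 68.7% of all measured genes, that spread being the median SD of 0.08 between repeat spots of 283 measured probes. The exception to the latter was *Snai2*. The scanner error is the wider yardstick, since the 10 *Cdh1* spots varied by 0.04 where the software gave 0.20.

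Genes that share the transition's epithelial and mesenchymal sides were described by lists. On the epithelial side, 29 of 32 genes of junctions, simple keratins and epithelial transcription factors were measured, of which 18 were higher and 11 lower on the *Sox21* KO array, against 52.4% higher among all measured genes. Their median log2 ratio was 0.13. None (0 genes) was 2-fold apart, near the 0.739% higher and 0.667% lower over all measured genes. At least 1.5-fold higher were 6 of them, and 0 were as much lower, against the 3.20% and 2.99% of all measured genes. The simple epithelial keratins *Krt18* and *Krt19* were highest, at 0.92 and 0.87, where *Krt18* read 3.63 and 6.89 on the wild-type and *Sox21* KO arrays. *Crb3*, of the apical polarity complex, was lowest at -0.56, with a dimmer probe at -0.22, followed by the tight junction gene *Cldn1* at -0.37. *Esrp1*, an epithelial splicing regulator, had probes of opposite sign, at -0.21 and 0.76. The 3 genes not measured on both arrays were *Cldn3*, *Ovol1* and *Elf3*.

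On the mesenchymal side, 31 of 32 genes were measured, of which 27 were higher and 4 lower, against 52.4% higher among all measured genes. Their median was 0.25, between 0.23 and 0.34 under the alternatives. None of them (0 genes) was 2-fold apart, and 4 were at least 1.5-fold higher, with 0 as much lower, where 0.739% and 0.667% of all measured genes were 2-fold higher and lower and 3.20% and 2.99% 1.5-fold. *Mmp9*, a matrix protease abundant in osteoclasts, was highest at 0.83, with readings of 10.8 and 19.2. *Spp1*, the osteopontin gene of bone, followed at 0.82, with 19.3 and 34.2, and these are genes of bone tissue as well as of the transition. *Lox*, whose enzyme cross-links collagen, was also past 1.5-fold, at 0.61. The 4 lower genes were *Cd44*, a hyaluronan receptor, at -0.22, *Fstl1*, a secreted glycoprotein, at -0.20, *Col3a1* at -0.12 and *Tagln* at -0.09. *Mmp3* was not measured on both arrays.

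Of 25 further regulators of the transition, 24 were measured, 14 of them higher and 10 lower, against 52.4% higher among all measured genes, with a median of 0.06. Their ratios stayed between -0.30 and 0.27, and 0 were 1.5-fold apart, near the 3.20% higher and 2.99% lower over all measured genes. The forkhead genes *Foxc1* and *Foxc2* were highest, at 0.27 each. The Ets family gene *Etv4* was lowest at -0.30, with a dimmer probe at -0.13, followed by *Ets1* at -0.21, whose other probe had 0.12.

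The study worked on TGF-β signalling and the anaphase-promoting complex in a dental epithelial cell line. A list of 15 genes of the same pathways, wider than those followed there, was read in the incisor. Of these, 14 were measured, 11 higher and 3 lower, against the same 52.4%, with a median of 0.10. At 1.5-fold the count was 0, near the 3.20% higher and 2.99% lower over all measured genes. The ligand genes *Tgfb1*, *Tgfb2* and *Tgfb3* had log2 ratios of 0.10, 0.34 and 0.21, and the other *Tgfb2* probe had 0.12. *Smad3*, which carries the TGF-β signal to the nucleus, read 19.4 and 20.7, a log2 ratio of 0.10, with -0.03 at its other probe. *Smad7*, an inhibitory Smad, was lowest at -0.25, whereas *Smad6*, also inhibitory, had 0.20. *Skp2*, which selects proteins for ubiquitination, had -0.24, while the activators of the anaphase-promoting complex *Fzr1* and *Cdc20* had 0.10 and -0.05. *Anapc10*, a subunit of that complex, had signals of 14.2 and 4.37, which failed the same mark on both, and no ratio was taken.

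Marker lists show which tissues the 2 RNAs held. All 8 dental epithelium markers were measured, among them the enamel genes *Amelx* and *Ambn*, with 6 higher, 2 lower and a median of 0.15. The counts of this and the other marker lists stand against 52.4% higher among all measured genes, and the marker values were not recomputed under other processing. The summed signal of the dental epithelium markers was 3013 on the wild-type and 3047 on the *Sox21* KO array. All 9 dental mesenchyme markers were measured, with 6 higher, 3 lower and a median of 0.15, and a summed signal of 1562 and 1729, a ratio of 1.11. This list shares 4 genes with the mesenchymal side (*Col1a1*, *Col1a2*, *Col3a1* and *Pdgfra*). Its sums were mostly the collagen genes among these, with *Col1a2* at 815 and 973, so the ratio of 1.11 is largely theirs. *Vim* and *Fn1* were higher by 1.23-fold and 1.31-fold beside that ratio, and *Cdh2*, *Twist1* and *Twist2* were lower. The part of tissue composition in these differences was not tested.

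Bone, cartilage and skeletal muscle markers differed more between the arrays than the dental lists. All 5 bone markers were higher, against 52.4% of all measured genes, with a median of 0.55, beside the ratios of *Spp1* and *Mmp9*. Their log2 ratios ran from 0.01 for *Sp7* to 0.93 for *Dmp1*. The summed signal went from 85.0 to 123 and was mostly *Ibsp*, at 75.3 and 110. Of 4 cartilage markers, 3 were measured, 2 higher and 1 lower, with a median of 0.36, and *Matn1* was not. Their sums of 11.5 and 18.9 were mostly *Col2a1*, which had a log2 ratio of 0.74, and *Col9a1* had a log2 ratio of -0.03. All 7 skeletal muscle markers were measured, and 6 of them were lower, with a median of -0.59 and sums of 69.1 and 49.8. The exception was the embryonic myosin gene *Myh3* at 0.64. The endothelial list, whose cells express *Vim* and *Fn1*, had all 7 genes measured, 5 higher and 2 lower, with a median of 0.13. Its sums of 57.7 and 59.2 were mostly *Kdr*, at 43.8 and 43.2. *Tek* and *Pecam1*, at 0.64 and 0.62, were 1.5-fold higher, and *Emcn* was lowest at -0.29. Of 7 macrophage and leukocyte markers, 6 were measured, 3 higher and 3 lower, with a median of 0.15, and the defining marker *Ptprc* was not. The sums of 88.9 and 82.5 were led by *Itgam* at 53.6 and 38.9, a log2 ratio of -0.46, whose other probe had 0.09. *Csf1r*, at 32.9 and 41.3, had probes from -0.01 to 0.84. The Schwann cell and nerve list had 5 of 6 measured, a median of -0.05 and sums of 15.2 and 14.7. Among 6 erythroid markers 4 were measured, with a median of -0.14 and sums of 246 and 203. The part of these tissues in the values of the 10 genes was not tested.

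**Figure D4:**
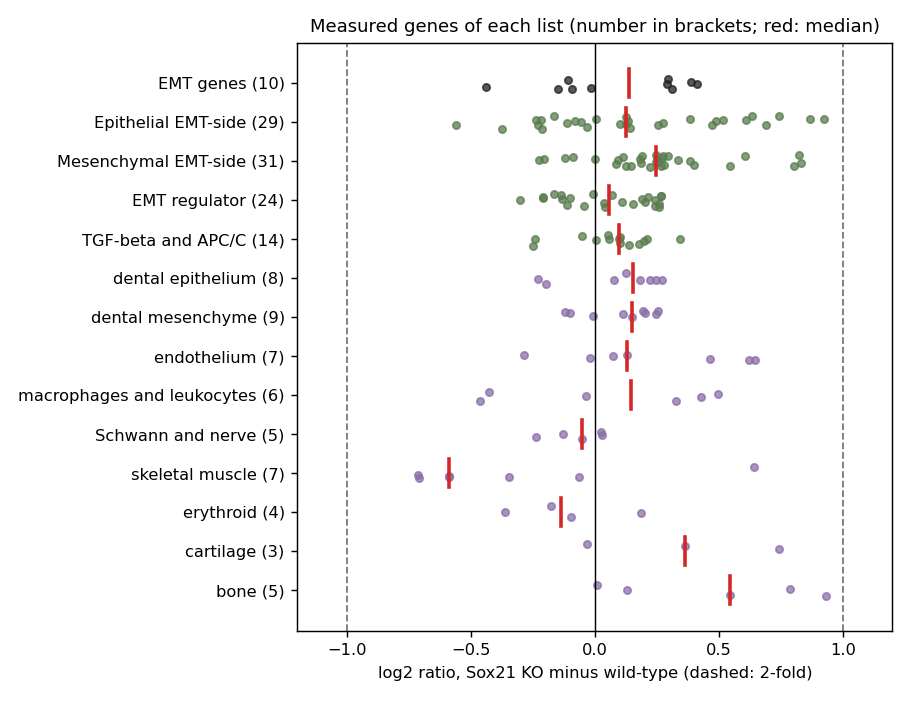
log2 ratios (*Sox21* KO minus wild-type) of the measured genes in each list, 1 point per gene, with the median in red, the number measured in brackets and dashed lines at 2-fold. Mesenchymal genes cluster to the right of 0 with a median of 0.25, bone lies at 0.55 and skeletal muscle at -0.59, while no gene shown is 2-fold apart.

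**Figure D5:**
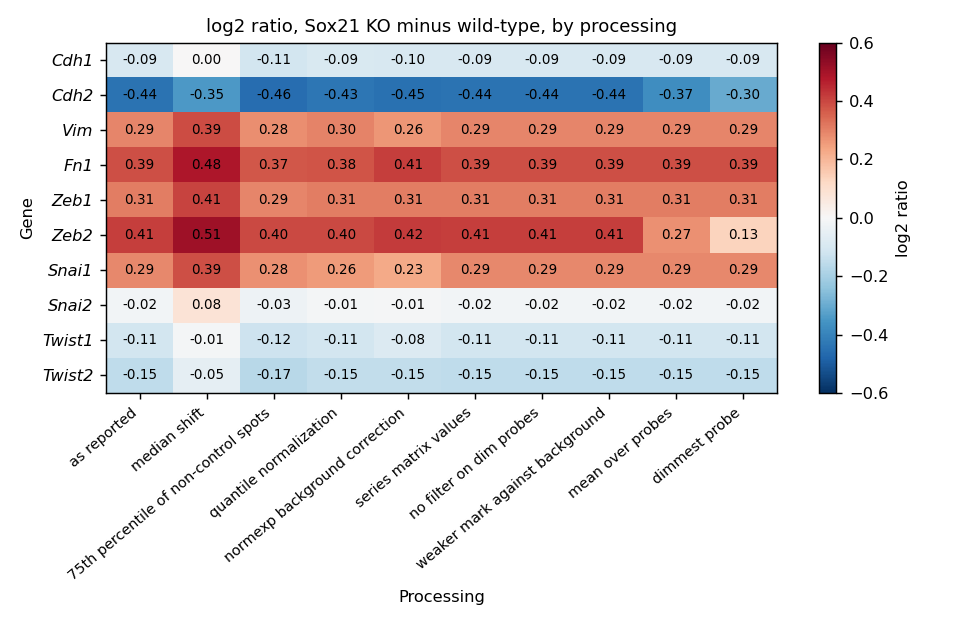
log2 ratio of each gene (rows) as reported and under 9 other ways of processing (columns), with the colour scale from -0.6 to 0.6. Only *Cdh1* and *Snai2* change sign, both under the median shift, and *Zeb2* ranges most, from 0.13 to 0.51.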

How the data were processed

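Cy3-labelled RNA was hybridized to 2 arrays, 1 per genotype. The authors deposited scanner files with a processed signal intensity for each spot, background-subtracted within the array by Agilent Feature Extraction 10.7.3.1, and the raw intensities. The deposited value table holds the same signals as a linear ratio to 1 number per array, 268 and 276, with medians of 0.0756 and 0.0707. Groups came from the sample labels.

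Each processed signal was divided by the 75th percentile of its array over all 62976 spots, and log2 values were averaged over a probe's spots. Control spots and 267 outlier spots were left out, and 0 spots were saturated. A probe counted as measured when each of its spots was marked well above background on both arrays. Genes outside the 10 were named by RefSeq (GRCm38.p6), through the accession for 26298 probes, the current symbol for 2044 and a former symbol for 355, while 1 list gene kept its file name. For each gene the brightest measured probe was used.

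With 1 array per genotype there was no test. The text names all probes of the 10 genes, *Sox21*, the 2 highest and 2 lowest genes of each transition list, and *Smad3*, *Skp2*, *Fzr1*, *Cdc20*, *Anapc10*, *Snai3* and the 3 TGF-β ligand genes. Other list genes were named after their values were seen. Alternatives changed the scaling, background correction, filter, source of values and choice of probe. Members and lists were chosen with earlier results of these data known. The steps were tested on simulated data. Python 3.11.15, numpy 2.4.6, pandas 2.3.3, matplotlib 3.10.9, R 4.3.3 and limma 3.58.1 were used.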

Additional observations from a re-analysis of the deposited data

How the results depend on the processing

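The values of the 10 genes, their median, their count past 2-fold and the medians of the 4 transition lists were recomputed under 9 alternatives that changed the scaling, the background correction, the source of the values, the filter on dim probes or the choice of probe. The list counts, marker lists and single list genes were not recomputed. The count of 0 members past 2-fold held under all 9 alternatives and at 1.5-fold. Scaling by the array median raised every log2 ratio by the same amount, and the median over all measured genes became 0.11. It moved the medians to 0.23 for the 10 genes, 0.22 for the epithelial side, 0.34 for the mesenchymal side, 0.15 for the regulators and 0.19 for the TGF-β and anaphase-promoting complex genes. All other alternatives moved these medians by less than the spread between repeat spots, for the 10 genes to 0.06 at the lowest, with the dimmest probes. Among 90 recomputed member values, 13 moved by more than that spread, 10 of them under the median scaling, and 2 changed sign, *Cdh1* to 0.00 and *Snai2* to 0.08, both under that scaling. Over the 13797 measured genes, 102 were 2-fold higher and 92 lower, against 135 and 63 under the median scaling, and 46 and 40 under the normal-exponential correction. The counts were 292 and 321 of 15911 genes that passed a weaker mark against background, and 508 and 695 of 21245 genes without any mark. No paired analysis was possible because each genotype has 1 array. The scanner error holds no spread between animals, so for none of the 10 genes do these arrays show whether the difference exceeds that spread.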
